A study of Mus musculus with 16 samples.

Results

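The target of the immunotoxin LMB2 and the genes that make the target sensitive to it were followed on 16 microarrays of mouse glomerular and podocyte RNA. The 10 genes were Eef2, its kinase Eef2k, the diphthamide synthesis genes Dph1, Dph2, Dph3, Dnajc24, Dph5, Dph7 and Dph6, and the protease Furin. They were chosen for their known links to Eef2 or to the toxin, with earlier results of these data known. Their probes were found by matching probe accessions to gene symbols. They are 10 of 20145 genes named on the array and 10 of the 14575 genes bright enough to test. They had 15 probes, 13 of which passed the filter on dim probes, and each gene is described by its brightest probe.

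Eef2 is the elongation factor that moves the ribosome along the messenger RNA after each new peptide bond. It carries diphthamide, a histidine rebuilt after translation in several enzymatic steps, and no other protein is known to carry it. LMB2 joins an antibody fragment against human CD25 to a fragment of Pseudomonas exotoxin, which Furin cleaves inside the cell and which then attaches ADP-ribose to diphthamide, so that Eef2 no longer works and protein synthesis stops. Cells that cannot make diphthamide resist toxins of this kind.

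The study used RiboTag mice, in which Cre adds an HA epitope to a ribosomal protein, crossed with Nphs1-Cre mice, so that the tag follows the promoter of the podocyte gene for nephrin. Podocyte RNA came from polysomes pulled down with an HA antibody, and glomerular RNA came from polysomes that had not been pulled down. All mice were on the C57BL/6N background, and each of the 4 groups had 4 arrays. The 2 uninjured groups, podocyte normal and glomerular normal, came from Nphs1-RiboTag mice without LMB2. The 2 injured groups came from Nphs1-RiboTag-NEP25 mice, whose podocytes carry human CD25, given 0.625 ng of LMB2 per g of body weight once into the tail vein and taken 4 days (day 4) or 7 days (day 7) later. Ages and sexes are not given in the sources used here, nor whether each array is a separate animal, so p-values measure the spread between arrays, which may be technical. No group of NEP25 mice without LMB2 is among the 16 arrays. The uninjured arrays were on 1 slide and the LMB2 arrays on the other, so an effect of LMB2 cannot be told apart from the NEP25 gene or from the slide. On the LMB2 slide the day 4 arrays were in row 2 and the day 7 arrays in row 1. A difference between the days therefore cannot be told apart from the slide row.

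All values are log2 processed intensities minus the 75th percentile of the array, so 0 is the level of a probe at that percentile, and levels of different genes are not set against each other. A gene was called different when the Benjamini-Hochberg adjusted p of limma over 14575 genes was under 0.05. The labels of the pulled-down RNA were checked with marker genes. All 12 podocyte markers were higher in podocyte than in glomerular RNA of uninjured mice (median log2 difference 2.31), and all 10 endothelial, 8 mesangial and smooth muscle, and 8 proximal tubule markers were lower (medians -4.01, -3.06 and -3.52). Of the distal nephron markers 5 of 6 were lower, with Aqp2 at 0.61 not called, and of the leukocyte markers 7 of 8, with Csf1r at -0.12 not called. At day 7, 10 of the 12 podocyte markers were lower than in normal podocytes, and their mean on the 4 arrays lay between -1.09 and -0.83 relative to normal, against -0.41 to -0.07 at day 4. Fewer podocytes and less RNA per podocyte cannot be told apart in such RNA. Markers of other cells also differed between arrays: the 8 proximal tubule genes stood 1.13 above the normal mean on normal podocyte array 4, 1.53 on day 4 array 1 and 2.30 on day 7 array 4.

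The promoters of Eef2 and of the genes that were lower at day 7 than at day 4 are shown as a contrast. At the scaling used here Eef2 was called in no comparison, while those genes were called lower. The sequences are the 250 bases upstream of an annotated start in RefSeq, build GRCm38.p6, written 5′ to 3′ on the strand of the gene. Capitals mark matches, on either strand, to short motifs searched letter for letter. The TATA box was searched as TATAAA and the E-box as CACGTG. The box bound by NF-Y was searched as CCAAT, and the core of ETS sites as CCGGAA. The SP/KLF box was searched as GGGCGG, and the longer Egr site, which can overlap it, as GCGGGGGCG. The AP-1 site was searched as TGANTCA, and the palindromic NRF1 site was searched too. Windows were found for 9 of the 10 genes, and Dph2 was not matched. The Eef2 window is chr10:81176381-81176630 on the plus strand, the Dph3 window chr14:32085693-32085942 on the minus strand (1 of 2 for this gene), the Dph6 window chr2:114654965-114655214 on the minus strand, and the Dph7 window chr2:24962172-24962421 on the plus strand.
Eef2: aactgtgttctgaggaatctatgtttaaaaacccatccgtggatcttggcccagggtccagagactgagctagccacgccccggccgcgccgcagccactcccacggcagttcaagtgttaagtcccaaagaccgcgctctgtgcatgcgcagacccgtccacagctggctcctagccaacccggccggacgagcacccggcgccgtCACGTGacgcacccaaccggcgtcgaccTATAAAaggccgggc
Dph3: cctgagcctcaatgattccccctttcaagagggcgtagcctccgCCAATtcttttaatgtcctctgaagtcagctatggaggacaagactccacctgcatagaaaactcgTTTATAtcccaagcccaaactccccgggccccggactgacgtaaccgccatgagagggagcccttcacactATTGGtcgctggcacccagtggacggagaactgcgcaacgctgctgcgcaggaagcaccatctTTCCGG
Dph6: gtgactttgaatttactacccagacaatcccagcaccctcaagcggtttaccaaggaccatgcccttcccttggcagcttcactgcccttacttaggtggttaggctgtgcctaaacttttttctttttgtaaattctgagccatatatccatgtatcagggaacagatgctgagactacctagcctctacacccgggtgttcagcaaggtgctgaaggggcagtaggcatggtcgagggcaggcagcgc
Dph7: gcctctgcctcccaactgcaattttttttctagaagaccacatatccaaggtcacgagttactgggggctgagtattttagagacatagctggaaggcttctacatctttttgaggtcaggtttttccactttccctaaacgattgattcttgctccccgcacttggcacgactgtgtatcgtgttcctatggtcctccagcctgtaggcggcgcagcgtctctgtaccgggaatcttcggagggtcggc
The Eef2 window holds an E-box that begins 43 bases before the start and a TATA box that begins 15 bases before it. The Dph3 window holds 2 CCAAT boxes, a TATA box and an ETS core that begins 6 bases before the start. The TATA box, the ETS core and the CCAAT box nearer the start are read on the opposite strand. No match to these letters lies in the Dph6 or Dph7 window. Among 32851 such windows, 6.02% held the E-box, 12.4% the TATA box, 33.8% the CCAAT box, 12.03% the ETS core and 32.7% the SP/KLF box. Shares for the other motifs were 0.782% for the NRF1 site, 6.75% for the AP-1 site and 2.57% for the Egr site. The other Dph3 window, not printed, holds an SP/KLF box, an ETS core and an E-box, and the Dnajc24 window holds a TATA box. G and C made up 62.8% of the Eef2 window, 56% of the Dph3 window and 50.8% of both others, against a median of 52.4% over all windows.

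Eef2 itself, the target of the toxin, stood at nearly the same level on all 16 arrays at the scaling used here. In glomerular RNA it read 6.49, 6.34, 6.18 and 6.43, and in normal podocytes 6.27, 6.36, 6.12 and 6.27. It read 6.22, 6.12, 6.11 and 6.21 at day 4 and 6.24, 6.14, 6.40 and 6.13 at day 7. The 4 groups overlapped. The order of their means ran from glomerular (6.36 ± 0.13, SD, n = 4) through normal podocytes (6.26 ± 0.10) and day 7 (6.23 ± 0.13) to day 4 (6.16 ± 0.06). Neighbouring means differed by less than the larger SD of each pair. Across the 16 arrays its range was 0.37, against a median range of 1.60 over all genes tested, and 10 of the 14575 genes had a smaller range. Other scalings of the arrays gave between 28 and 1054 genes with a smaller range than Eef2.

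No comparison called Eef2 at the scaling used here. Podocyte minus glomerular RNA gave -0.10 (SE 0.09, 95% interval -0.30 to 0.09, adjusted p = 0.306 by limma). Day 4 minus normal gave -0.09 (interval -0.28 to 0.10, adjusted p = 0.476 by limma), and day 7 minus normal gave -0.03 (interval -0.22 to 0.17, adjusted p = 0.814 by limma). The intervals bound the differences but do not show that the levels were the same. The podocyte-to-glomerular value depends on the scaling: Eef2 was called lower in podocytes after quantile normalization (-0.29, adjusted p = 0.0243 by limma) and with the 75th percentile taken over probes measured on every array (-0.45, adjusted p = 3.82e-04 by limma). With the median of all probes set to 0, a point that lies near background on these arrays, Eef2 was called lower at day 7 (-0.35, adjusted p = 0.0492 by limma).

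Eef2k, the calcium- and calmodulin-dependent kinase that phosphorylates Eef2 and slows elongation, was dim but above background. Its levels ran from -2.61 to -1.99 in glomerular RNA, from -2.12 to -1.34 in normal podocytes, from -2.07 to -1.46 at day 4 and from -2.25 to -1.66 at day 7. Podocyte RNA was higher than glomerular RNA by 0.58 (SE 0.19, adjusted p = 0.0117 by limma), although the 2 groups overlapped. A second probe of Eef2k gave 0.71 (SE 0.21, adjusted p = 0.00622 by limma, probe-level fit). After LMB2 the differences from normal were -0.01 at day 4 and -0.21 at day 7, neither called, with 95% intervals of -0.42 to 0.40 and -0.62 to 0.20. With the median of all probes set to 0, Eef2k was called lower at day 7 (-0.53, adjusted p = 0.0102 by limma), and with the percentile over probes measured on every array its podocyte call was lost (0.24, adjusted p = 0.321 by limma).

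**Figure D1:**
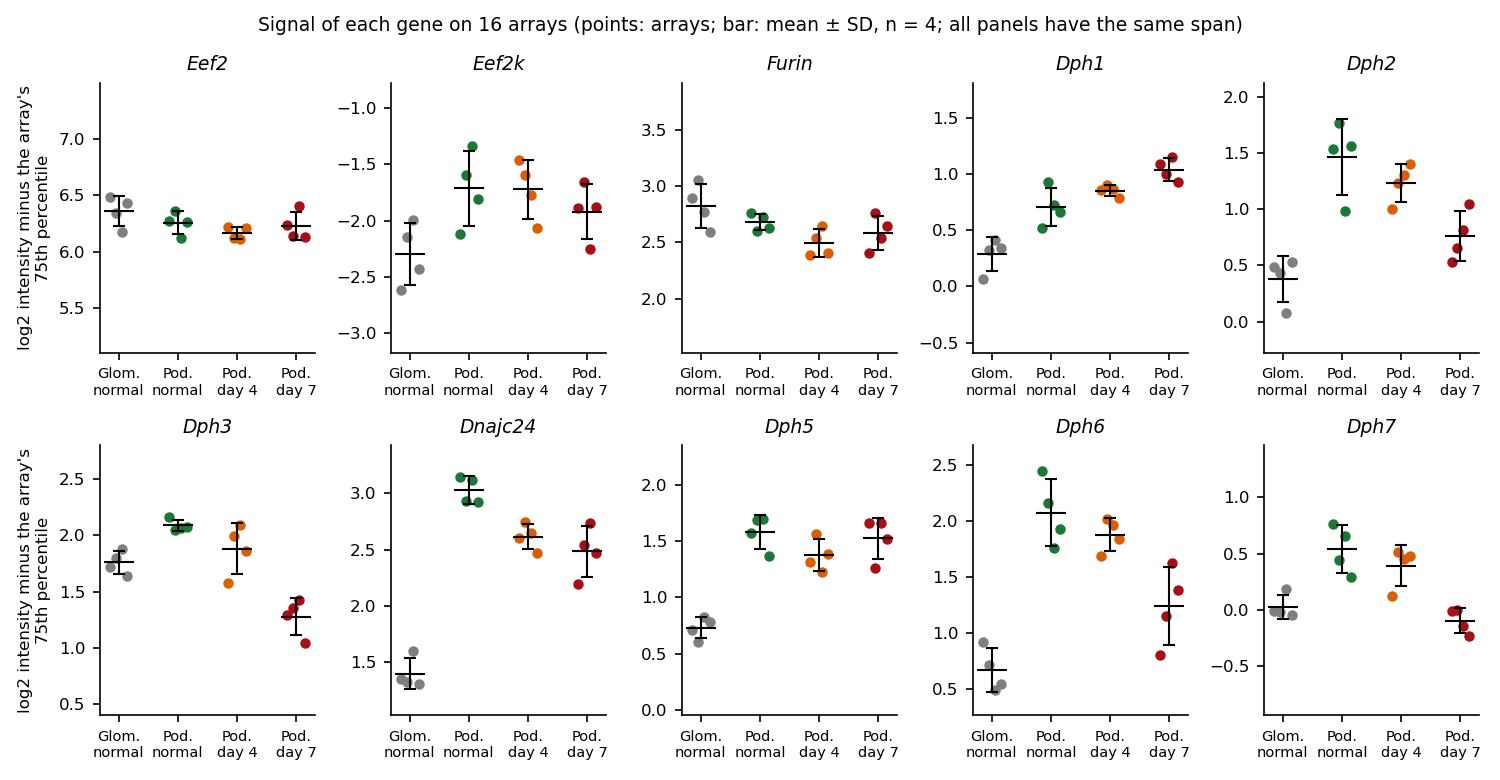
Signal of the 10 genes on each array, on the log2 scale relative to that array's 75th percentile, with 1 point per array and bars for the mean ± SD of 4 arrays; panels share their span but not their position. Eef2 keeps within 0.37 over all 16 arrays, and Dph3 at day 7 (1.04 to 1.43) lies below every other array of that gene.

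The first step of diphthamide synthesis moves a carbon chain from S-adenosylmethionine to the histidine and needs 4 gene products. Dph1 and Dph2 form the iron-sulphur enzyme, Dph3 supplies it with electrons, and Dnajc24, also known as Dph4, is a J-domain protein that binds iron. In uninjured mice Dnajc24 and Dph2 were higher in podocyte than in glomerular RNA, and the calls for Dph1 and Dph3 depended on the scaling. After LMB2 the 4 genes parted at the scaling used here: Dnajc24 was lower at both days, Dph2 and Dph3 were lower at day 7, and Dph1 was higher at day 7. The Dph1 call held under 5 of 6 scalings, and the day 7 calls of Dnajc24, Dph2 and Dph3 held under all 6.

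Dnajc24 had the largest podocyte-to-glomerular difference of the 10 genes. It read 1.35, 1.32, 1.60 and 1.31 in glomerular RNA and 3.15, 2.93, 3.12 and 2.92 in normal podocytes. It read 2.60, 2.74, 2.65 and 2.47 at day 4 and 2.19, 2.54, 2.73 and 2.47 at day 7. Every normal podocyte array lay above every array of the other groups, and both LMB2 groups lay between normal podocytes and glomerular RNA. The podocyte level was higher than the glomerular level by 1.63 (SE 0.12, 3.10-fold, adjusted p = 1.37e-08 by limma). It fell by 0.41 at day 4 (SE 0.12, adjusted p = 0.0141 by limma) and by 0.55 at day 7 (SE 0.12, adjusted p = 9.88e-04 by limma). A second probe gave 1.66, -0.57 and -0.59 for the same comparisons, and each was called in the probe-level fit. Day 7 against day 4 gave -0.13 (interval -0.38 to 0.11) and was not called.

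Dph2 read 0.48, 0.43, 0.08 and 0.53 in glomerular RNA and 1.54, 1.77, 0.98 and 1.56 in normal podocytes. It read 1.01, 1.23, 1.30 and 1.40 at day 4 and 0.53, 0.65, 0.81 and 1.04 at day 7. Normal podocytes lay above glomerular RNA on every array, while 1 day 7 array reached into the ranges of normal podocytes and of day 4. The podocyte level was higher by 1.08 (SE 0.17, 2.12-fold, adjusted p = 3.12e-05 by limma), and at day 7 it fell by 0.70 from normal (SE 0.17, adjusted p = 0.00224 by limma). At day 4 the difference was -0.23 and was not called. Day 7 was lower than day 4 by limma (-0.48, SE 0.17, adjusted p = 0.0394), but this call was lost under 12 of 19 alternatives, 6 of them the removal of a single array: day 4 array 2, 3 or 4, or day 7 array 1, 2 or 3 (-0.49 to -0.40, adjusted p 0.0592 to 0.108 by limma).

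Dph3 had the smallest adjusted p of the 10 genes after LMB2. It read 1.72, 1.80, 1.88 and 1.64 in glomerular RNA and 2.16, 2.05, 2.06 and 2.08 in normal podocytes. It read 1.58, 2.00, 2.09 and 1.87 at day 4 and 1.29, 1.35, 1.43 and 1.04 at day 7. The day 7 arrays lay below those of every other group, glomerular RNA included. Day 7 was lower than normal by limma (-0.81, SE 0.11, adjusted p = 2.73e-05) and lower than day 4 (-0.61, SE 0.11, adjusted p = 0.00113). Day 4 differed from normal by -0.21 and was not called. A second, dimmer probe gave -0.92 for day 7 against normal (adjusted p = 6.50e-04 by limma) and -0.48 against day 4, which was not called (adjusted p = 0.0615 by limma).

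The higher Dph3 level in podocytes than in glomeruli, 0.33 (SE 0.11, adjusted p = 0.0150 by limma), was below the median difference of all genes, 0.38. It was lost with quantile normalization (0.04, adjusted p = 0.725 by limma) and turned to -0.014 (adjusted p = 0.904 by limma) with the percentile taken over probes measured on every array. The second probe gave 0.38 (adjusted p = 0.0694 by limma), so no direction is given for Dph3 in this comparison.

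At the scaling used here, Dph1 moved against its partner Dph2 at day 7, while both were higher in podocyte than in glomerular RNA. Dph1 read 0.07, 0.32, 0.42 and 0.34 in glomerular RNA and 0.52, 0.93, 0.72 and 0.66 in normal podocytes. It read 0.85, 0.90, 0.87 and 0.78 at day 4 and 1.09, 1.00, 1.15 and 0.92 at day 7. From low to high the group means ran glomerular, normal podocyte, day 4, day 7, and the day 7 arrays overlapped the normal podocyte arrays only at array 2 of the latter. Podocyte RNA exceeded glomerular RNA by 0.42 (SE 0.10, adjusted p = 0.00135 by limma), and day 7 exceeded normal by 0.33 (SE 0.10, adjusted p = 0.0105 by limma). The day 7 call was lost (0.01) with the median of all probes set to 0, and the podocyte call (0.08) with the percentile over probes measured on every array. Day 4 differed from normal by 0.14 and day 7 from day 4 by 0.19, and neither was called.

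Dph1 overlaps the gene Ovca2 in the RefSeq annotation. The Ovca2 probe was higher in podocytes than in glomeruli by 0.67, as Dph1 was, but lower than normal at day 4 (-0.28, adjusted p = 0.0104 by limma) and at day 7 (-0.33, adjusted p = 0.00136 by limma), opposite to Dph1. The other Dph1 probe was above background on 5 of 16 arrays and was not used.

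Dph5 is the methyltransferase that builds the intermediate of the pathway, Dph7 removes a methyl group from it, and Dph6 adds the final amide. Dph5 and Dph6 were higher in podocyte than in glomerular RNA, and Dph6 and Dph7 were lower at day 7 while the call for Dph5 after LMB2 depended on the scaling.

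Dph5 lay between 0.61 and 0.83 in glomerular RNA, between 1.37 and 1.70 in normal podocytes, between 1.23 and 1.57 at day 4 and between 1.26 and 1.66 at day 7. All podocyte arrays, injured or not, lay above all glomerular arrays. The normal podocyte level was higher than the glomerular level by 0.85 (SE 0.11, 1.81-fold, adjusted p = 6.32e-06 by limma). The differences after LMB2 were -0.21 at day 4 (interval -0.45 to 0.03) and -0.06 at day 7 (interval -0.30 to 0.18), neither called at the scaling used here. With the median of all probes set to 0, Dph5 was called lower at day 4 (-0.47, adjusted p = 0.0128 by limma) and at day 7 (-0.38, adjusted p = 0.0264 by limma). Dph5 overlaps A930005H10Rik in the annotation, whose probe was higher than normal at day 4 by 0.72 (adjusted p = 2.53e-04 by limma).

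Dph7 read -0.01, -0.02, 0.19 and -0.04 in glomerular RNA and 0.76, 0.45, 0.66 and 0.29 in normal podocytes. It read 0.12, 0.51, 0.45 and 0.48 at day 4 and -0.01, -0.00, -0.15 and -0.24 at day 7. The day 7 arrays lay below all other podocyte arrays and beside the glomerular ones. Day 7 was lower than normal by limma (-0.64, SE 0.12, adjusted p = 3.24e-04) and lower than day 4 (-0.49, SE 0.12, adjusted p = 0.00581). Podocyte RNA exceeded glomerular RNA by 0.51 (SE 0.12, adjusted p = 0.00107 by limma), a call lost (0.17) with the percentile over probes measured on every array. A second Dph7 probe was not above background on any array.

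Dph6 read 0.92, 0.72, 0.50 and 0.55 in glomerular RNA and 2.45, 2.16, 1.76 and 1.93 in normal podocytes. It read 1.69, 2.02, 1.96 and 1.84 at day 4 and 0.80, 1.16, 1.62 and 1.38 at day 7. The day 7 arrays were below the day 4 and normal arrays, and their lowest array reached into the glomerular range. Podocyte RNA exceeded glomerular RNA by 1.40 (SE 0.18, 2.64-fold, adjusted p = 4.60e-06 by limma). Day 7 was lower than normal by limma (-0.83, SE 0.18, 1.78-fold, adjusted p = 0.00101) and lower than day 4 (-0.64, SE 0.18, adjusted p = 0.0130), while day 4 differed from normal by -0.20 and was not called.

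**Figure D2:**
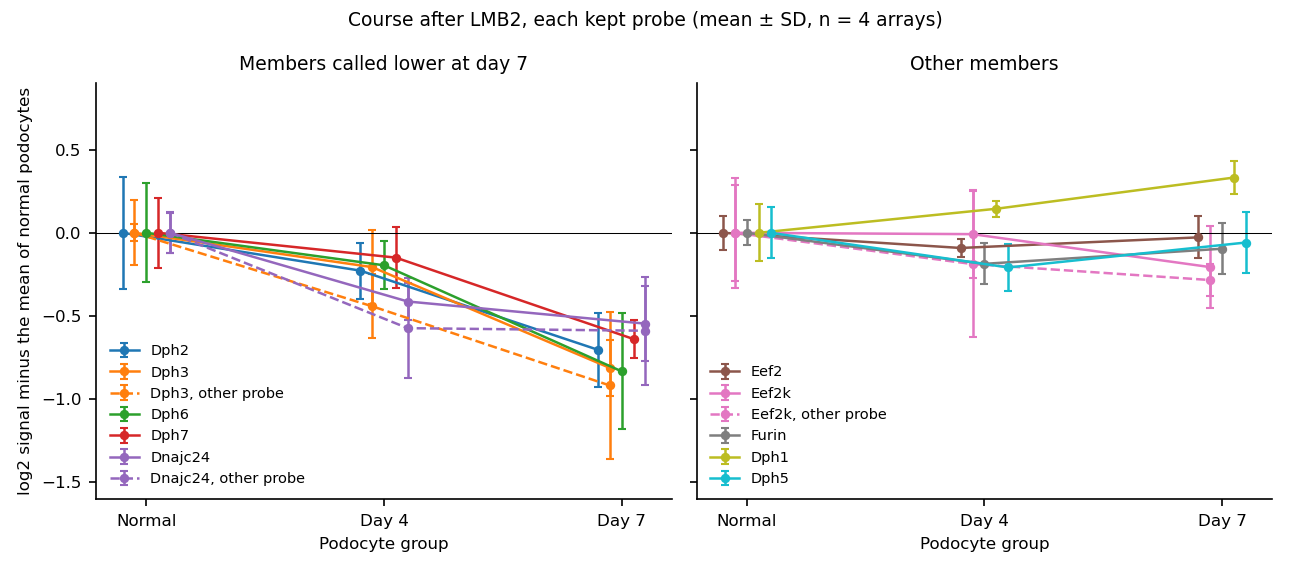
Change from the mean of normal podocytes (log2 units, mean ± SD of 4 arrays) at day 4 and day 7 for each kept probe, with genes called lower at day 7 on the left and the others on the right; dashed lines are second probes. Dph2, Dph3, Dph6 and Dph7 are further from 0 at day 7 (-0.64 to -0.83) than at day 4 (-0.15 to -0.23), and Dnajc24 stands at -0.41 by day 4.

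Furin, the convertase that cuts the toxin, was not called in any comparison. Its levels ran from 2.59 to 3.05 in glomerular RNA, from 2.61 to 2.76 in normal podocytes, from 2.39 to 2.65 at day 4 and from 2.40 to 2.76 at day 7. All groups overlapped, its range over the 16 arrays was 0.67, and 447 of the genes tested had a smaller range. The differences were -0.14 for podocyte against glomerular RNA (interval -0.38 to 0.09), -0.19 at day 4 (interval -0.42 to 0.05) and -0.10 at day 7 (interval -0.33 to 0.14). Quantile normalization (-0.51) and the percentile over probes measured on every array (-0.49) called Furin lower in podocytes, and the median of all probes called it lower at day 4 (-0.45) and day 7 (-0.42).

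Counted together, 8 of the 10 genes were called higher in podocyte than in glomerular RNA, at the scaling used here, where 51.6% of all genes tested were called higher, 27.5% lower and 79.1% either way. At day 4, 1 gene was called lower, against 19.9% of all genes lower, 12.3% higher and 32.2% either way. At day 7, 5 genes were called lower and 1 higher, against 36.7% of all genes lower, 21.6% higher and 58.3% either way. Day 7 against day 4 called 4 genes lower, against 20.7% of all genes lower, 13.2% higher and 34% either way. Taken either way, the 8 genes called in the first comparison, the 6 at day 7 and the 4 between the days lay near the shares of all genes, and the 1 gene at day 4 lay below. By direction, the 8 higher in podocyte RNA, the 5 lower at day 7 and the 4 lower between the days lay above the shares of all genes. The counts were not tested against these shares, so nothing particular to the 10 genes is read from them. Their median differences were 0.55, -0.19, -0.38 and -0.17, beside medians of 0.38, -0.12, -0.14 and -0.07 over all genes tested. Groups did not overlap for 7 genes in the podocyte-to-glomerular comparison (73% of all genes), 1 at day 4 (33.1%), 4 at day 7 (50.6%) and 4 between the days (34.2%). Day 4 and day 7 were set against the same 4 normal arrays.

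**Figure D3:**
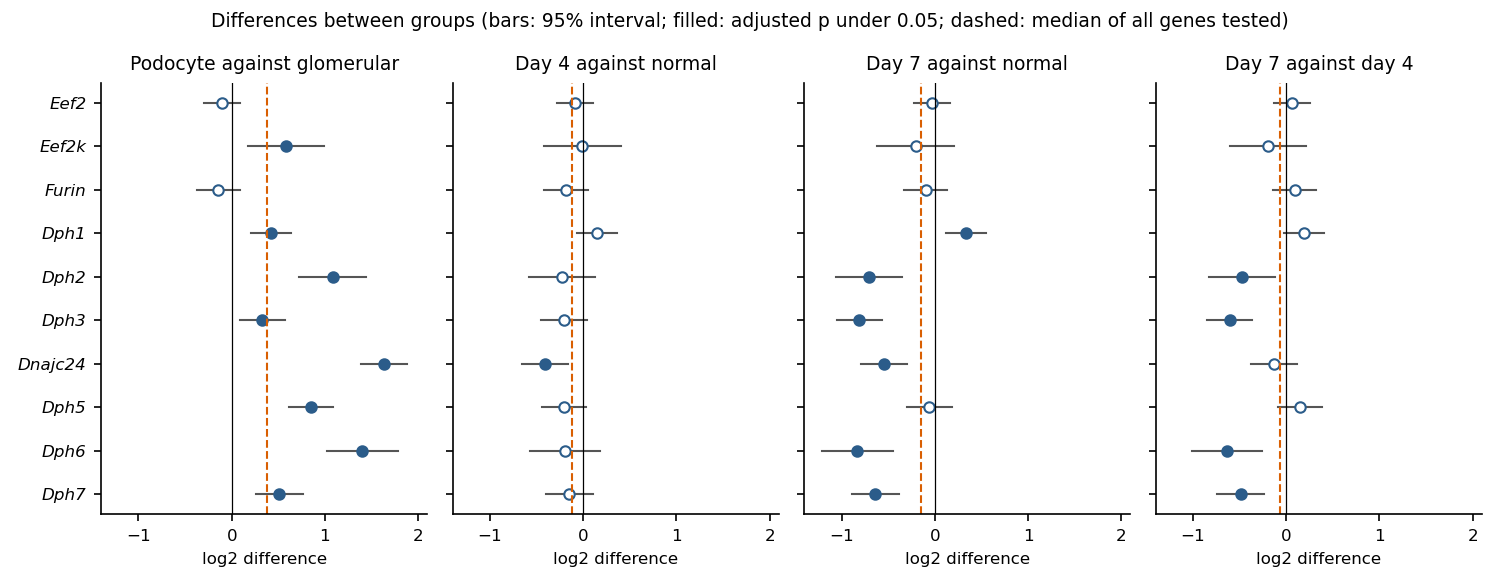
Log2 differences of the 10 genes in 4 comparisons, with 95% intervals; filled points passed limma's adjusted p of 0.05, and the dashed line is the median of all genes tested. In podocyte against glomerular RNA, Dnajc24 (1.63), Dph6 (1.40), Dph2 (1.08) and Dph5 (0.85) lie furthest above the median of 0.38.

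Relative to the median of all genes, the podocyte-to-glomerular differences were 1.25 for Dnajc24, 1.02 for Dph6, 0.70 for Dph2 and 0.47 for Dph5. They were 0.20 for Eef2k, 0.13 for Dph7, 0.04 for Dph1 and -0.05 for Dph3, and -0.49 for Eef2 and -0.53 for Furin. Dnajc24, Dph6, Dph2 and Dph5 were called higher in podocytes under all 6 scalings tried, and the other calls of that comparison were lost under at least 1 of them. At day 7, Dph2, Dph3, Dph6, Dph7 and Dnajc24 were called lower under all 6 scalings. With the median of all probes set to 0, Dph3 (-0.47), Dph5 (-0.47), Dph7 (-0.41) and Furin (-0.45) joined Dnajc24 as called lower at day 4. Without the 3 podocyte arrays highest in proximal tubule genes, a choice made after seeing the data, the differences at day 7 were -0.76, -0.74, -0.93, -0.68 and -0.58, and the numbers of the 10 genes called were as before in each comparison.

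**Figure D4:**
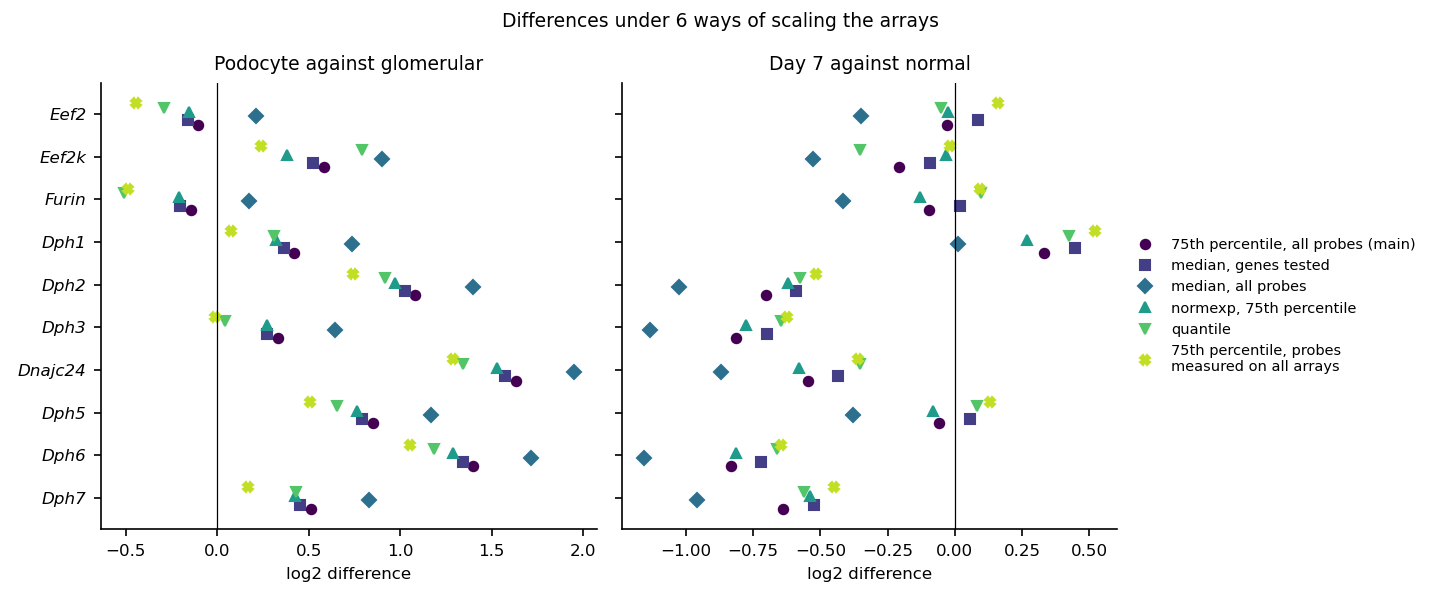
Log2 differences of the 10 genes under 6 scalings of the arrays, for podocyte against glomerular RNA and for day 7 against normal. Dnajc24 stays between 1.29 and 1.95 in the first comparison, while Eef2 moves between -0.45 and 0.21.

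Markers of podocytes and of other cells moved over the same groups. At day 7 podocyte markers were lower on every array (-1.09 to -0.83 relative to normal), and the mean of the 8 mesangial and smooth muscle genes stood 1.16 to 1.60 above normal. That mean rests on Tagln (6.01), Des (3.02) and Acta2 (1.59), the 3 of 8 called higher. The other 5 lay between -0.48 and 0.45 and the median of the 8 was 0.28. Endothelial genes (10 of 10 above background in every group) ran from -0.44 to 0.15 at day 7, with 2 called higher and 2 lower, and from -1.07 to -0.08 at day 4, with 3 called lower. Proximal tubule genes (8 of 8 above background in every group) ran from -1.75 to 1.53 at day 4 and from -1.53 to 2.30 at day 7, with 0 of 8 called by limma and 0 of 8 at an unadjusted p under 0.05. Distal nephron genes ran from -0.49 to 0.13 and from -0.95 to 0.46, with 0 of 6 (0 at an unadjusted p under 0.05) and 1 of 6 called lower by limma. Leukocyte genes ran from -0.22 to 1.41 and from 0.39 to 0.71, with 2 and 1 of 8 called higher. The called genes were Csf1r and C1qa at day 4 and C1qa alone at day 7. C1qa was above background on 0 of 4 normal podocyte arrays, 1 of 4 day 4 arrays and 2 of 4 day 7 arrays. Its difference ran from 0.48 to 2.20 at day 4 and from 0.63 to 2.89 at day 7 over the scalings, so its size is uncertain. Ptprc at day 4 and Lyz2 at day 7 were not above background on any array. The part of these cells in the falls of Dph2, Dph3, Dph6, Dph7 and Dnajc24 was not tested.

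Over the 12 podocyte arrays, the 10 pairs of the 5 genes that fell at day 7 had Pearson correlations from 0.59 between Dph2 and Dnajc24 to 0.92 between Dph3 and Dph7. Dph1 ran opposite to Dph2, Dph3, Dph6, Dph7 and Dnajc24 (-0.64 to -0.74). After the group means were taken away, the 10 pairs ran from -0.22 between Dph2 and Dph7 to 0.67 between Dph6 and Dnajc24, and the correlations of Dph1 lay between -0.21 and 0.16. These arrays share the group differences and the scaling, so the values are a description only. The genes most like Eef2 over these arrays were Atp6v1g2 (0.88), Ttc27 (0.84) and Tbrg4 (0.82). Those most like Eef2k were Oprl1 (0.88), Gstt3 (0.87) and Fbxl21 (0.86), and those most like Furin were Aen (0.91), Cib1 (0.90) and Ankrd39 (0.89).

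Genes around Eef2 and along the route of the toxin were taken from 5 lists. Their counts stand beside the shares of all genes called higher and lower, which were 51.6% and 27.5% in podocyte against glomerular RNA, 12.3% and 19.9% at day 4, 21.6% and 36.7% at day 7, and 13.2% and 20.7% between the days, and no list was tested against them. Of the other translation elongation factors, 6 of 8 were tested, and Eef1a2 and Eif5a were too dim. Between podocyte and glomerular RNA, 3 were higher and 2 lower: Eefsec, the selenocysteine factor, by 0.79 (SE 0.08), Eef1d, a nucleotide exchange subunit, by 0.66 (SE 0.12) and Eif5a2 by 0.55 (SE 0.09), with Eif5a2 lost under 1 scaling. Eef1a1, which brings aminoacyl-tRNA to the ribosome, differed by -0.08 and was not called. At day 7, Eef1g (-0.43) and Eefsec (-0.37) were lower and Eef1a1 was higher (0.29, SE 0.11, adjusted p = 0.0391 by limma), a call lost under 11 of 19 alternatives and turned to -0.03 with the median of all probes. At day 4, 1 was lower (Eef1g, -0.36, lost under 6 of 19 alternatives), and between the days 1 was lower (Eefsec, -0.45). The list's medians were 0.23, -0.10, -0.11 and 0.02 for podocyte against glomerular RNA, day 4, day 7 and day 7 against day 4.

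Regulators of Eef2k and Eef2, 15 genes that include calmodulin, AMP-activated kinase, S6 kinases, mTOR and the ubiquitin ligase receptors that mark Eef2k for degradation, were all tested. In podocyte against glomerular RNA 11 were higher and 2 lower, with Calm2, a calmodulin gene, higher by 1.85 (SE 0.12) and Mapk13, a stress-activated kinase known to phosphorylate Eef2k, and Rps6ka1 lower (-2.25, SE 0.28, and -1.99, SE 0.23). At day 4 none was higher and 3 were lower: Mapk13 (-0.80, above background on 2 of 4 day 4 arrays and lost under 11 of 19 alternatives), Btrc (-0.62, SE 0.17) and Fbxw11 (-0.30, SE 0.09, lost under 4 of 19). At day 7, 3 were higher and 7 lower, with Mapk13 (1.82, SE 0.28) and Rps6ka1 (1.27, SE 0.23) higher and Btrc (-1.41, SE 0.17) lower. Between the days 3 were higher and 4 lower, with Mapk13 by 2.63 (SE 0.28), Rps6ka1 by 0.83 and Btrc by -0.78. With normexp background correction, the Mapk13 differences were smaller, 0.83 at day 7 against normal and 0.90 against day 4, where 2 of 4 day 4 arrays were above background. Btrc and Fbxw11 are the receptors named above, and a second Btrc probe gave 0.08 at day 4 and -0.53 at day 7. The medians of the list were 0.66, -0.16, -0.32 and -0.21 in the same order.

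The other proprotein convertases, relatives of Furin, held the largest differences from normal podocytes among the 5 lists. Of 8 genes 7 were tested, and Pcsk1 was too dim. Pcsk2, a convertase of neuroendocrine cells, rose by 3.26 at day 4 (SE 0.28, adjusted p = 5.74e-07 by limma) and by 3.29 at day 7 (adjusted p = 2.51e-07 by limma), and its second probe gave 4.23 and 3.25. Pcsk4, known from germ cells, rose by 3.85 at day 4 (SE 0.22, adjusted p = 1.28e-08 by limma) and by 3.34 at day 7 (adjusted p = 2.26e-08 by limma). Both were above background on every array and were called under each scaling. Pcsk7 was lower at both days (-0.40 and -0.68), and at day 7 Mbtps1 was lower as well (-0.42), which makes 2 higher and 1 lower at day 4 and 2 higher and 2 lower at day 7. A second Mbtps1 probe gave 0.03 at day 7, and the Mbtps1 call was lost with the mean of its probes, 1 of 19 alternatives.

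Between podocyte and glomerular RNA 4 convertases were higher and 2 lower, with Pcsk6 (2.44, SE 0.18), Pcsk2 (1.65, SE 0.28) and Pcsk5 (1.30, SE 0.19) among the higher ones. Between the days Mbtps1 was lower (-0.39). The list's medians were 0.88, -0.07, -0.24 and -0.17.

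The KDEL receptors carry proteins, and toxins that borrow their signal, back to the endoplasmic reticulum, and the Sec61 channel is a gate of that membrane. All 7 genes were tested, and 6 were higher in podocyte than in glomerular RNA, with Sec61a1 by 1.15 (SE 0.13), Sec61b by 1.13 (SE 0.17) and Sec61g by 1.04 (SE 0.15). At day 4 limma called 0 of 7, and 0 of 7 had an unadjusted p under 0.05. A second Kdelr1 probe stood at -1.06 at day 4 and -1.26 at day 7, where the probe used gave 0.02 and -0.14. At day 7, Kdelr3 was higher (1.00, SE 0.27, lost under 1 of 19 alternatives) and Sec61b lower (-0.50, SE 0.17, lost under 6 of 19), and Kdelr3 was also higher than at day 4 (1.00, SE 0.27, and 0.34 with normexp background correction). The list's medians were 0.89, -0.00, -0.09 and -0.15.

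Elongator, which modifies transfer RNAs and uses Dph3 as well, was followed through 7 genes, all tested. All 7 were higher in podocyte than in glomerular RNA, with Elp4 by 1.01 (SE 0.11) and Elp2 by 0.87 (SE 0.10); Kti12 was lost under 8 of 21 alternatives. At day 4, 2 were lower, Kti12 (-0.35) and Elp3 (-0.22), lost under 8 and 13 of 19 alternatives. At day 7, 5 of 7 were lower and none higher, with Elp6 (-0.96, SE 0.14), Kti12 (-0.78, SE 0.11) and Elp3 (-0.49, SE 0.08) the furthest from normal. Between the days 5 of 7 were lower, with Elp6 (-0.63), Elp2 (-0.50) and Kti12 (-0.43) the furthest apart. The list's medians were 0.86, -0.07, -0.49 and -0.42.

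**Figure D5:**
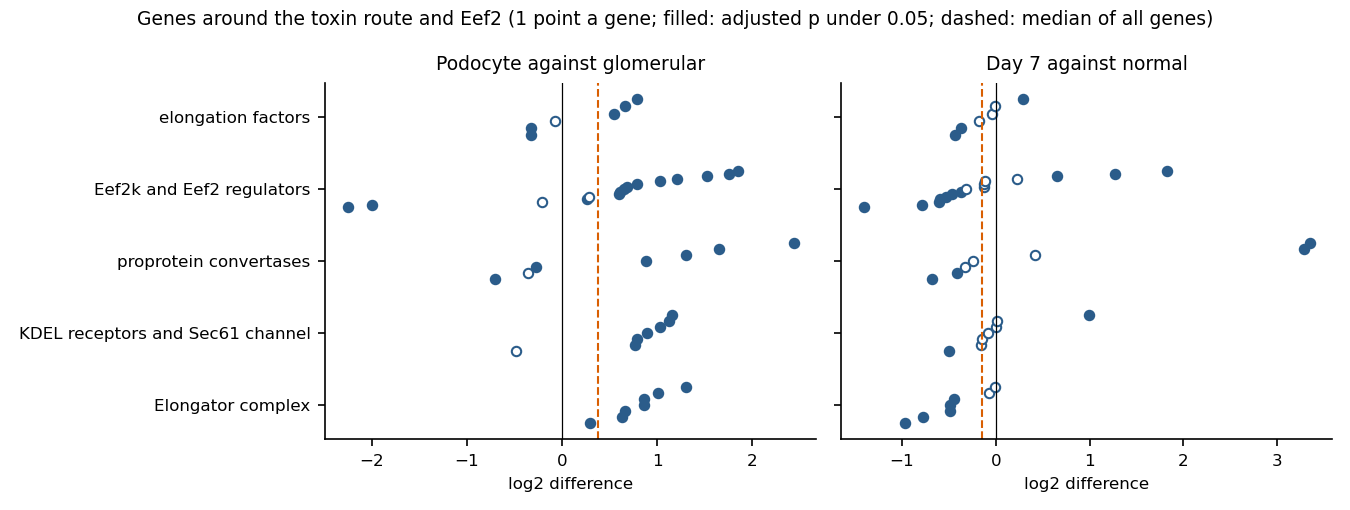
Log2 differences of the genes in the 5 lists, 1 point per gene, for podocyte against glomerular RNA and day 7 against normal; filled points passed limma's adjusted p of 0.05 and the dashed line is the median of all genes. At day 7, Pcsk4 (3.34) and Pcsk2 (3.29) stand apart from the other convertases, and 5 of 7 Elongator genes were called lower.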

How the data were processed

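Polysome RNA was labelled with Cy3 and hybridised to 16 arrays, 4 per group. Per the file headers, these were Agilent arrays of 1 colour scanned and quantified by Agilent Feature Extraction 11.5.1.1, and the deposited intensity of a spot has its background subtracted, with no scaling across arrays. In the authors' deposited table of log2 values (39430 probes), each column equalled the log2 intensity of 1 array plus a constant. Medians of the columns lay between -3.17 and -2.51, how the constant was chosen is not given in the sources used here, and 6 columns matched a different replicate of their group, so the scanner files were used.

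From these, control and outlying spots were left out, spots of a probe were averaged (55681 probes) and log2 intensities were set relative to each array's 75th percentile. RefSeq accessions named 26582 probes and left 29099 unnamed. A probe was kept (19060 were) when all 4 arrays of some group showed it well above background, the brightest represented its gene, and 14575 genes entered limma 3.58.1 (R 4.3.3, lmFit and eBayes) with group as the term; files were read with Python 3.11.15. Between 49.3% and 57.5% of spots were above background, none was saturated, and the number of arrays limits the precision. In data simulated for day 4 against normal over 14575 genes, 71% of genes changed by 1 and 94% changed by 2 on the log2 scale were recovered, with 9 false calls. The simulated noise was independent for each gene, and 100 genes were changed at each size, whereas 32.2% of genes were called in the data. These figures check the fitting steps and do not give the recovery or the false calls of the real comparison.

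Same-numbered arrays of the 2 uninjured groups deviated together (correlations 0.42 to 0.51), so their numbers may pair them, which the labels do not say. The 10 genes and all lists were chosen with earlier results of these data known. All 10 genes are described. From each list, up to 3 called genes with the largest difference per comparison are named, with Eef1a1 and, for Eef2, Eef2k and Furin, the 3 genes most correlated over podocyte arrays. Genes that overlap a described gene were added. Results for some genes of the lists are not reported here.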

Additional observations from a re-analysis of the deposited data

Results flagged for a closer look

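The effect of LMB2 at day 7 differed from that at day 4 by a direct limma test for 4 genes of diphthamide synthesis: Dph6 (-0.64), Dph3 (-0.61), Dph7 (-0.49) and Dph2 (-0.48), each lower at day 7, with Dph2 the least stable of them. Day and slide row cannot be told apart in these values.

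A single array stood apart from the other 3 of its group in 3 cases, measured as its gap to the nearest array over the range of the group. The share was 0.847 for Dph7 in glomerular RNA (array 3 high), 0.844 for Dph7 at day 4 (array 1 low) and 0.858 for Dnajc24 in glomerular RNA (array 3 high). Chance alone marks about 1 in 20 groups.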

How the results depend on the processing

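Of the counts of genes and of described genes called in the 4 comparisons, 155 alternative values lay within 1.5 times the main value and 1 did not: day 4 against normal with the median of all probes set to 0, which called 5 of the 10 genes, all lower. For single genes 760 alternative values kept the call or its absence, 19 lost the call, 12 gained one and 1 reversed a called difference. The reversed value was Dph3 in podocyte against glomerular RNA, -0.014 with the percentile over probes measured on every array, and the cause was not tested. Values that changed sign without a call on either side are counted among the 760. For example, Eef2 in podocyte against glomerular RNA was -0.10 and reached 0.21 over the scalings. Scaling moved the median of all genes, from 0.38 to 0.70 (median of all probes) or 0.04 (probes measured on every array) in podocyte against glomerular RNA, from -0.12 to -0.39 or -0.02 at day 4, and from -0.14 to -0.47 or 0.04 at day 7. With probes measured on every array the genes higher and lower were 5416 and 5022 in place of 7514 and 4013 for podocyte against glomerular RNA, 2207 and 1969 in place of 1799 and 2896 at day 4, 4228 and 3870 in place of 3153 and 5349 at day 7, and 2407 and 2231 in place of 1930 and 3021 between the days. With the median of all probes they were 1183 and 5810 at day 4 and 1969 and 7387 at day 7, and with the median of the genes tested 2026 and 2086 at day 4.

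With the replicate number as a block, 11541 genes were called in podocyte against glomerular RNA in the fit of all arrays and 12124 in the fit of the 8 uninjured arrays, in place of 11527. Blocking by replicate number changed no call of the 10 genes. The blocks of the other comparisons called 4760, 8554 and 5048 genes. Slide row as a block within the 8 uninjured arrays called 11593. Slide as a term beside group could not be fitted for the comparisons with LMB2, since each slide holds its own groups. Leaving out the 3 arrays high in proximal tubule genes, the row block, the block within 8 arrays and the median of the genes tested were chosen after seeing the data.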
